A study of Mus musculus with 8 samples.

Results

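The genes described here are 47 cell cycle and proliferation genes, read from whole-genome expression arrays of mouse macrophages. A probe counted as a member when its transcript belonged to 1 of 47 listed genes of DNA replication and mitosis. That rule used no measured value, but the list was chosen with earlier results of these data known. Of the 47 genes, 18 act in S phase, when DNA is copied, and 28 in mitosis or the preparation for it; the remaining one, Ccnd1, is a G1 cyclin. After a filter on dim probes, 44 of the 47 were tested, among 20736 features (genes and unnamed probes) in all. There were 4 arrays of macrophages from male EP2KO mice, which lack EP2, the prostaglandin E2 receptor encoded by Ptger2, and 4 of macrophages from male wild-type (WT) mice. Every mouse, WT mice included, had been given LPS, a bacterial endotoxin, so no untreated state was compared. Strain, age, dose, time after LPS, the site the macrophages came from and the kind of knockout allele are not given in the sources used here.

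A dividing cell licenses its replication origins with the Mcm2 to Mcm7 helicase, copies its DNA in S phase, and then builds a spindle that parts the chromosomes in mitosis. Transcripts of S phase genes are mainly switched on by E2F factors, and those of mitotic genes later, through promoters that often carry a CHR element and CCAAT boxes bound by the DREAM, B-Myb and FoxM1 complexes and by NF-Y. Most mature macrophages divide little, but resident macrophages of body cavities are known to renew by division, in response to growth factors such as Csf1.

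Ptger2 served as the check of the labels. Relative to each array's 75th percentile its signal was 0.357, 0.287, 0.323 and 0.224 on EP2KO 1 to 4, against 0.972, 1.12, 0.899 and 1.00 on WT 1 to 4. The log2 difference was -1.76 ± 0.17 (SE, n = 4 each; limma with Benjamini-Hochberg adjusted p = 0.0615, exact two-sided permutation p = 0.0286, the smallest that 70 arrangements can give). The sources used here do not state whether this probe reads the deleted part. Between 25565 (WT 1) and 32156 (WT 3) of 39429 probes per array were well above background, with 0 saturated spots. Replicates 1 and 2 of both genotypes lay on 1 slide and replicates 3 and 4 on another, so replicate pair and slide cannot be told apart. WT arrays held the first positions of each slide and EP2KO arrays the last, which leaves position on the slide and genotype inseparable. Macrophage identity genes such as Csf1r and Adgre1 were well above background on all 8 arrays (15 of the 16 listed genes were on the array). Separate mice are not stated for the replicates, and the p-values here cover only the spread between samples, which may be technical.

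Over all 8 arrays no cell cycle member passed the test between the genotypes. The median log2 difference, EP2KO minus WT, was 0.07 over the 44 members, with 25 above 0 and 19 below, against -0.03 over all features. limma called 0 members at a Benjamini-Hochberg adjusted p under 0.05 and 0 at an unadjusted p under 0.05, where it called 0.00965% of all features (2 of 20736) and 1.98% without adjustment. With the replicate number as a block limma again called 0 members, adjusted or not, beside 0% and 5.45% of all features. The small median hid wide swings: a member's highest and lowest array lay 2.83 log2 units apart in the median, and up to 4.63.

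Those swings ran alike in most members. Each gene's level was centred on its mean of 8 arrays and the median taken over members. It was 1.31 and 1.45 on EP2KO 1 and 2, against 0.59 on WT 1 and -0.42 on WT 2. In the other replicate pair it was -1.34 and -1.28 on EP2KO 3 and 4, against 0.48 on WT 3 and -0.78 on WT 4. EP2KO arrays therefore held both ends of the range, with WT arrays between them. The same medians over all features stayed between -0.10 and 0.07.

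**Figure D1:**
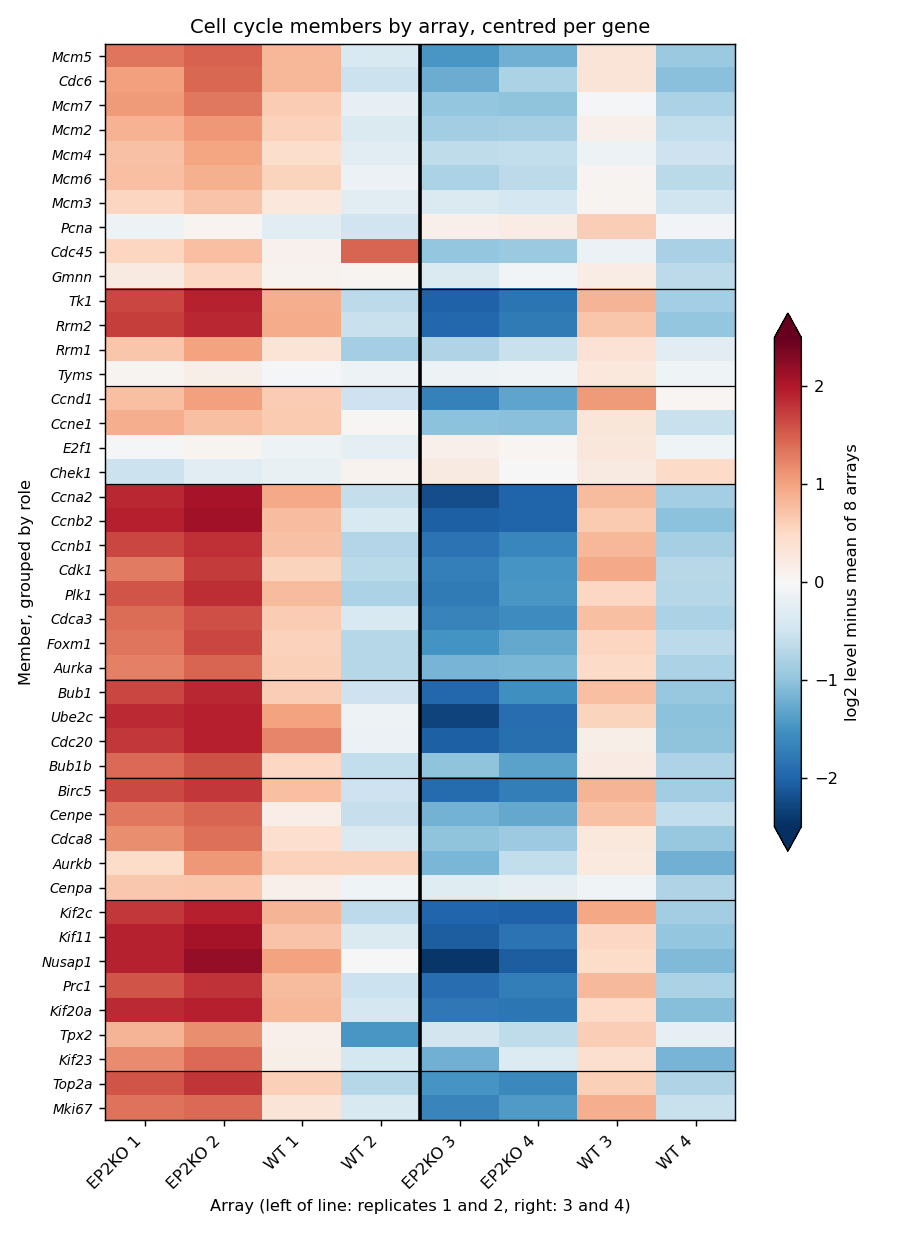
Heat map of the 44 tested members (rows, grouped by role) on the 8 arrays (columns, replicates 1 and 2 left of the line, 3 and 4 right), with colour giving the log2 level minus the gene's mean of 8 arrays. Most rows are red on EP2KO 1 and 2, blue on EP2KO 3 and 4, and paler with WT 1 and WT 3 above WT 2 and WT 4; Pcna, E2f1, Tyms and Chek1 stay pale.

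Within replicates 1 and 2 the member median of EP2KO minus WT was 1.42 on the log2 scale, and 42 of 44 members were above 0. limma called 0 members at an adjusted p under 0.05 (lowest Benjamini-Hochberg adjusted p = 0.262, for Cenpe) and 32 higher at an unadjusted p under 0.05, against 0.0193% called and 5.19% higher among all features. Both EP2KO values lay above both WT values in 41 of 44 members, an order that 15.6% of all features showed; the exceptions were Cdc45, Chek1 and Aurkb. The median was 0.87 without WT 2.

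Within replicates 3 and 4 the median was -1.15, and 42 of 44 members were below 0. Here limma called 0 members (lowest adjusted p = 0.108, for Ccnd1) and 23 lower without adjustment, against 0.94% called and 9.65% lower among all features. Both EP2KO values lay below both WT values in 33 members, against 21.3% of all features, and 31 members were above WT in the first pair and below it in the second, against 5.32% of all features. The median was -0.54 without WT 3 and -1.78 without WT 4.

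The difference of these differences, replicates 3 and 4 minus replicates 1 and 2, had a median of -2.64 and was below 0 in 43 members. limma called 0 of 44 members for it (lowest adjusted p = 0.119) and 32 lower without adjustment, against 0.0145% called and 10% lower among all features. Leaving out WT 1 brought the count to 10 members, so this count rests on that array; leaving out any other array kept it at 0.

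**Figure D2:**
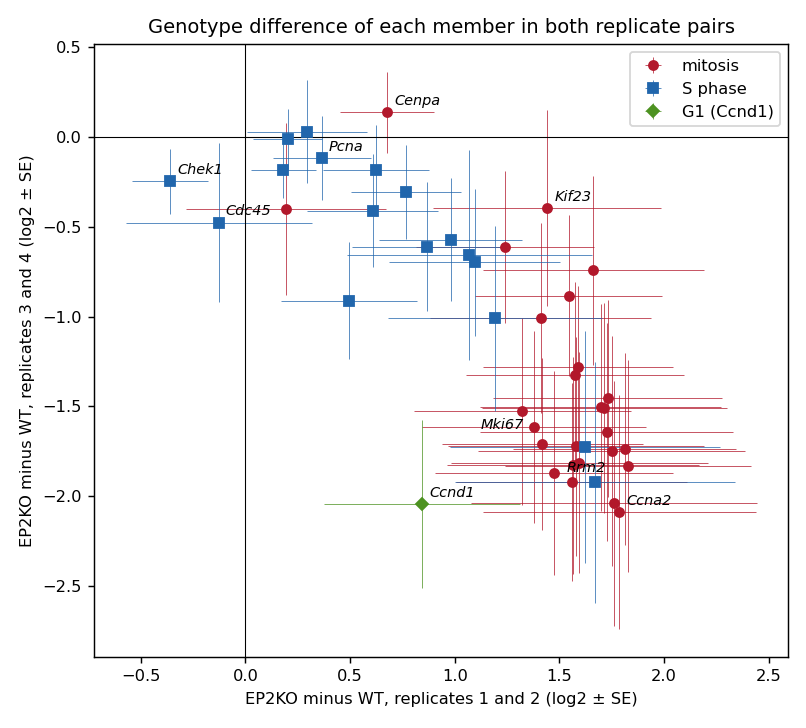
EP2KO minus WT of each tested member within replicates 1 and 2 (horizontal, log2 ± SE) against the same within replicates 3 and 4 (vertical, log2 ± SE), coloured by phase. Most mitosis members sit at the lower right, higher in EP2KO in the first pair and lower in the second, most S phase members lie nearer to 0, and Ccnd1 lies at 0.84 and -2.04.

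The wide shift was between the EP2KO arrays themselves, in a comparison added after the data had been seen. EP2KO 3 and 4 had a median of -2.64 against EP2KO 1 and 2 over the 44 members, a 6.24-fold lower signal. limma called 38 of 44 members lower (Benjamini-Hochberg adjusted p under 0.05) and 0 higher, where 15.6% of all features were called lower and 38.8% in either direction. Both EP2KO 3 and EP2KO 4 lay below EP2KO 1 and EP2KO 2 in 41 members, against 32.8% of all features. Without EP2KO 2 the count was 22, and without EP2KO 3 it was 24. Single members were followed in these runs only where the rule for per-array values, given under processing, had picked them. Among those, Aurka, Cdc6, Cenpa and Kif23 no longer passed without any 1 of the EP2KO arrays. Ccnd1 and Mcm5 no longer passed without EP2KO 2 or without EP2KO 3. Which of the remaining members dropped out was not followed, so their adjusted p-values below may also rest on single arrays. The same comparison of WT 3 and 4 with WT 1 and 2 had a median of -0.21, and limma called 0 of 44 members, although 32.1% of all features were called. Without adjustment 1 member was higher and 1 lower, against 23.6% and 21.6% of all features. That 38 members passed in EP2KO and 0 in WT does not itself show that the genotypes differ: the test of it is the difference of differences above, which called 0.

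WT arrays were spread within each slide rather than between slides. WT 1 was above WT 2 in 41 of 44 members, with a median gap of 1.13 log2 units, and WT 3 was above WT 4 in 43, with a median gap of 1.26; among all features these orders held in 38.4% and 56.3%. The 2 EP2KO arrays of a slide lay closer together, with median gaps of 0.20 (EP2KO 2 minus EP2KO 1) and 0.15 (EP2KO 4 minus EP2KO 3). Against the nearer WT array of its slide, EP2KO 1 stood 0.74 above WT 1 and EP2KO 4 stood 0.57 below WT 4 in the median, both smaller than the gaps between the WT arrays themselves.

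Mitosis members swung further than S phase members. The median of the 26 tested mitosis members was 1.57 and 1.78 on EP2KO 1 and 2, against 0.63 and -0.51 on WT 1 and 2. On the other slide it was -1.74 and -1.55 on EP2KO 3 and 4, against 0.57 and -0.83 on WT 3 and 4. For the 17 S phase members the values were 0.74 and 0.89 on EP2KO 1 and 2, against 0.45 and -0.26 on WT 1 and 2. They were -0.79 and -0.65 on EP2KO 3 and 4, against 0.27 and -0.61 on WT 3 and 4. The order of the 8 arrays was thus the same in both phases, with a smaller amplitude in S phase. Between the EP2KO slides 25 of 26 mitosis members were lower (median -3.27), and 12 of 17 S phase members (median -1.54), by the same limma test.

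**Figure D3:**
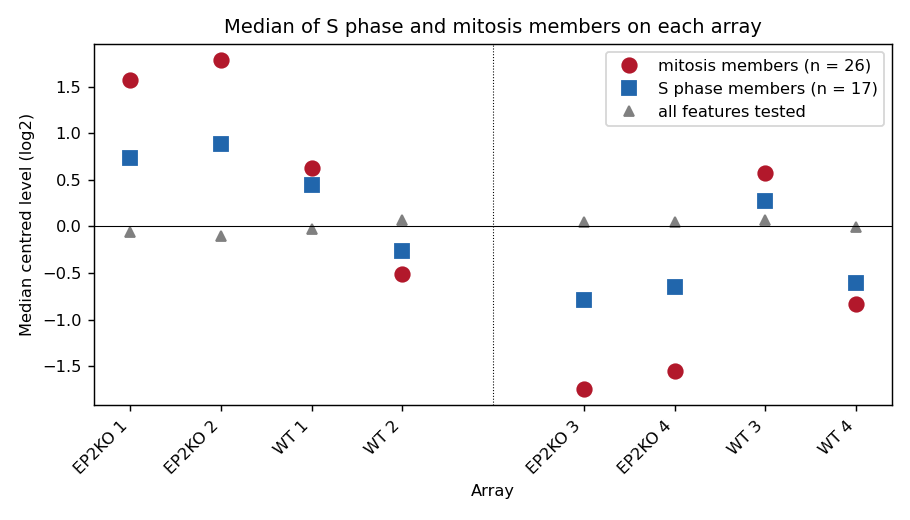
Median centred log2 level of the 26 mitosis and 17 S phase members, with that of all features tested, on each array; replicates 1 and 2 are left of the dotted line. Mitosis medians run between -1.74 and 1.78, S phase medians between -0.79 and 0.89, and the medians of all features stay near 0.

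The promoters of the 3 S phase and the 3 mitosis members with the largest difference of differences are shown. Most members moved alike, and the regulators named above read such DNA. Ccna2, which had the largest difference of all, has no entry in the RefSeq promoter table (build GRCm38.p6). Each line gives the 250 bases before the annotated start, 5′ to 3′ on the gene's strand, with matches in capitals. The motifs searched on both strands were the CHR element TTTGAA, the CCAAT box CCAAT, and the E2F sites TTTGGCGC, TTTCCCGC, TTTCGCGC and TTTGCCGC.
Tk1 (chr11:117826015-117826264, minus strand): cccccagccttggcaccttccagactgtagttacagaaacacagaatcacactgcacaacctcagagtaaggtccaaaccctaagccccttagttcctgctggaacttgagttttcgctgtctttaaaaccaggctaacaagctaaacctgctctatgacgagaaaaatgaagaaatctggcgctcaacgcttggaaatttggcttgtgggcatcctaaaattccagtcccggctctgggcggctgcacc
Rrm2 (chr12:24708004-24708253, plus strand): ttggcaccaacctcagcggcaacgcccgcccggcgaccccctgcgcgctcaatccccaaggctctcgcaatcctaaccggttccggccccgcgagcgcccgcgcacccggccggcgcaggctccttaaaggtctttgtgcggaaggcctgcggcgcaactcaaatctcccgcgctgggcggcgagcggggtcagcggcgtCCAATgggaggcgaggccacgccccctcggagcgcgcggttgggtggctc
Mcm5 (chr8:75109259-75109508, plus strand): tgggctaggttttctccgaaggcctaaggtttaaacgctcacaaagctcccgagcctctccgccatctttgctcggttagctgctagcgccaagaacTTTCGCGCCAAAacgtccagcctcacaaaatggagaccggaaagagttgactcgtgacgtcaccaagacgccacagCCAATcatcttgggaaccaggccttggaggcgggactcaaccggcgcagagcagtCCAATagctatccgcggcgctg
Kif2c (chr4:117178773-117179022, minus strand): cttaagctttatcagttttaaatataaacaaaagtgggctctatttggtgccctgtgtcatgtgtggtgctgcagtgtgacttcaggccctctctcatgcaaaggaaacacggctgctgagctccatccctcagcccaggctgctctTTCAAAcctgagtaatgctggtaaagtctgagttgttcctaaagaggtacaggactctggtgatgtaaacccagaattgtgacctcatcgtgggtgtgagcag
Ccnb2 (chr9:70421555-70421804, minus strand): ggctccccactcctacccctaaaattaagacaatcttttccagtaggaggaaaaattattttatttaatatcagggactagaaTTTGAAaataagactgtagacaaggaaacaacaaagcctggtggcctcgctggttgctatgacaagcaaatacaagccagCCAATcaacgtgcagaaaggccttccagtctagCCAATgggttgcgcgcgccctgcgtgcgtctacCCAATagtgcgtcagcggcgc
Kif11 (chr19:37376132-37376381, plus strand): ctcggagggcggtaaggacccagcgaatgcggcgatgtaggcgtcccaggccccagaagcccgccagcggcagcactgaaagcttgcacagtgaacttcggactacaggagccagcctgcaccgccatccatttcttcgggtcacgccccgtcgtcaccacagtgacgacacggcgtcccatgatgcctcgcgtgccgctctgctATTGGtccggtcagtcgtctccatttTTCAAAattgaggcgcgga
In the printed bases Ccnb2 held 3 CCAAT boxes, beginning 87, 54 and 21 bases before the start, and a CHR match that began 167 bases before it. Past the start, and so not printed, Ccnb2 had a further CHR match at base 5 and Mcm5 a further CCAAT box at base 7. Kif11 held 1 of each, both on the opposite strand, 45 and 19 bases before the start. Mcm5 held 2 E2F matches that overlap each other, 1 per strand, beside 2 CCAAT boxes, while Rrm2 had 1 CCAAT box, Kif2c 1 CHR match, and Tk1 no match among these letters.

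Across windows of 300 bases, from 250 before the start to 50 after it, 38 of the 47 members had an entry. A CHR match lay in 18 of 23 mitosis members (78.3%) and in 2 of 15 S phase members (13.3%), against 18.1% of the 27025 genes with a window. CCAAT boxes were in 87% of mitosis and 60% of S phase members, against 37.9% of all genes. An E2F match was in 4.35% of mitosis and 33.3% of S phase members, against 2.32% of all genes. Replication and mitosis genes that are no members had shares in the same order, with CHR in 58.1% of the other mitosis genes and 13.9% of the other replication genes, and E2F in 14% and 33.3%. These matches describe letters in a window and show no binding.

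**Figure D4:**
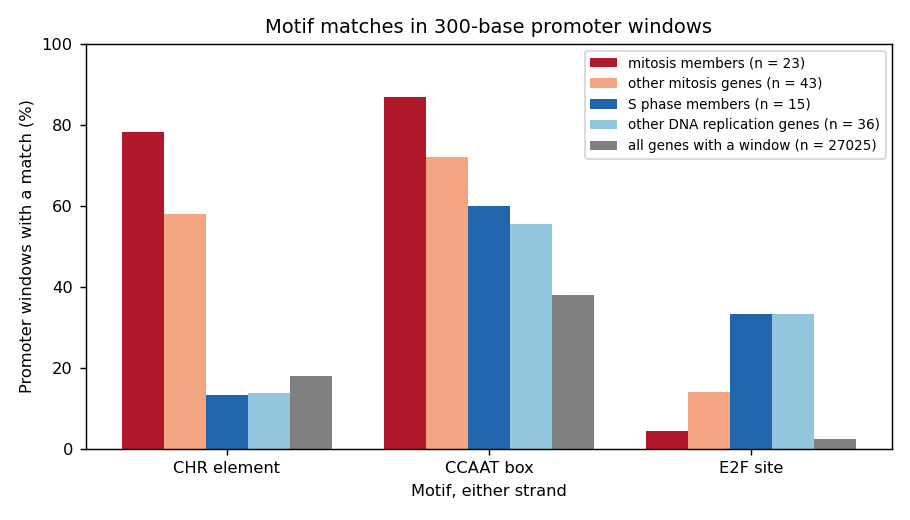
Share of 300-base promoter windows (per cent) with at least 1 match to the CHR element, the CCAAT box or any of 4 E2F sites on either strand, for mitosis and S phase members, other genes of both kinds and all genes with a window. CHR matches are in 78.3% of mitosis members and 13.3% of S phase members; E2F matches are in 33.3% of S phase members and 4.35% of mitosis members.

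Mki67, which encodes the Ki-67 protein that marks dividing cells, had a level of 6.33 and 6.55 times the array's 75th percentile on EP2KO 1 and 2, against 3.09 and 1.88 on WT 1 and 2. On EP2KO 3 and 4 it had 0.780 and 0.927, against 4.62 and 1.67 on WT 3 and 4. EP2KO and WT did not overlap in either pair and changed places between them. The log2 difference was 1.42 ± 0.48 in the first pair (SE, n = 2 each; limma adjusted p = 0.311) and -1.71 ± 0.48 in the second (adjusted p = 0.166). Each SE within a pair or between slides rests on 1 spread pooled over all 8 arrays. It therefore includes the wider gaps between the WT arrays of a slide, also where only EP2KO arrays are compared. Between the EP2KO slides Mki67 fell by 2.92 ± 0.48 on the log2 scale (limma adjusted p = 0.00578), 7.58-fold. Top2a, the topoisomerase that untangles replicated chromosomes, had 1.06 and 1.24 on EP2KO 1 and 2, against 0.542 and 0.220 on WT 1 and 2. It had 0.129 and 0.118 on EP2KO 3 and 4, against 0.544 and 0.212 on WT 3 and 4, and was 9.26-fold lower between the EP2KO slides (limma adjusted p = 0.00647).

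All 8 cyclins, kinases and other genes of mitotic entry had the same course, and all 8 fell between the EP2KO slides. Ccna2, the cyclin of S phase and G2, was at 3.49 and 3.94 on EP2KO 1 and 2, against 1.84 and 0.627 on WT 1 and 2. It stood at 0.203 and 0.237 on EP2KO 3 and 4, against 1.64 and 0.530 on WT 3 and 4. Its difference of differences was the largest of the members at -3.87 ± 0.92 (limma adjusted p = 0.126), and between the EP2KO slides it was 16.9-fold lower (limma adjusted p = 0.00525). Ccnb2, a partner of Cdk1, had 7.88 and 8.71 on EP2KO 1 and 2, against 3.49 and 1.56 on WT 1 and 2. It had 0.499 and 0.509 on EP2KO 3 and 4, against 3.22 and 1.00 on WT 3 and 4, again with both groups apart in each pair.

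Cdk1 itself, the kinase that starts mitosis, was 8.67-fold lower on EP2KO 3 and 4 than on EP2KO 1 and 2, its cyclin Ccnb1 11.2-fold, the polo kinase Plk1 10.02-fold, and Foxm1, which activates mitotic genes, 7.40-fold. Aurka, the kinase of the spindle poles, moved least in this group. Its level was 2.36 and 2.69 on EP2KO 1 and 2, against 1.49 and 0.603 on WT 1 and 2, and 0.439 and 0.445 on EP2KO 3 and 4, against 1.38 and 0.571 on WT 3 and 4. Even there the WT values stayed inside the EP2KO extremes. Cdca3, a trigger of mitotic entry, was 8.78-fold lower between the EP2KO slides. limma's adjusted p for these 8 genes ran from 0.0038 (Ccnb2) to 0.0132 (Aurka).

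Genes of the spindle checkpoint and of the anaphase-promoting complex, which times the parting of chromosomes, fell in 4 of 4 tested members between the EP2KO slides. Ube2c, which hands ubiquitin to that complex, had 3.94 and 4.16 on EP2KO 1 and 2, against 2.16 and 0.986 on WT 1 and 2. It had 0.216 and 0.290 on EP2KO 3 and 4, against 1.58 and 0.532 on WT 3 and 4, a 16.2-fold fall between the EP2KO slides (limma adjusted p = 0.00349). Bub1, a checkpoint kinase, had 0.522 and 0.608 on EP2KO 1 and 2, against 0.252 and 0.115 on WT 1 and 2. It had 0.0422 and 0.0567 on EP2KO 3 and 4, against 0.277 and 0.0843 on WT 3 and 4. Both genes thus separated the genotypes in each pair, in opposite directions. Bub1b, the checkpoint protein BubR1, had 0.672 and 0.760 on EP2KO 1 and 2, against 0.362 and 0.165 on WT 1 and 2, and 0.125 and 0.100 on EP2KO 3 and 4, against 0.289 and 0.147 on WT 3 and 4. Cdc20, the activator of the complex, was 14.0-fold lower between the EP2KO slides.

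At the centromere and in the chromosomal passenger complex the members differed more among themselves. Birc5, or survivin, a subunit of that complex, had 13.6 and 14.8 on EP2KO 1 and 2, against 7.29 and 3.01 on WT 1 and 2. It had 1.14 and 1.31 on EP2KO 3 and 4, against 7.74 and 2.38 on WT 3 and 4. Cenpe, a motor that ties chromosomes to the spindle, had 2.88 and 3.16 on EP2KO 1 and 2, against 1.30 and 0.772 on WT 1 and 2, and 0.512 and 0.476 on EP2KO 3 and 4, against 1.92 and 0.752 on WT 3 and 4. These 2 followed the common course.

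Cenpa, the histone that marks centromeres, followed it only in the first pair. It had 2.63 and 2.64 on EP2KO 1 and 2, against 1.78 and 1.53 on WT 1 and 2, but 1.33 and 1.38 on EP2KO 3 and 4, between 1.54 on WT 3 and 0.976 on WT 4. Its differences were 0.68 ± 0.23 and 0.14 ± 0.23, and the value of the second pair was -0.19 without WT 4. Aurkb, the kinase of the complex, differed by 0.19 ± 0.48 in the first pair and -0.40 ± 0.48 in the second. Its signal was low, from 0.00884 on WT 4 to 0.0431 on EP2KO 2, and any effect of this was not tested. Between the EP2KO slides the 5 tested members all fell, from 1.95-fold for Cenpa (limma adjusted p = 0.0186) to 11.6-fold for Birc5 (adjusted p = 0.00687), with Cdca8 at 4.66-fold.

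Motors and microtubule factors included the widest single shift. Nusap1, which bundles spindle microtubules, was 19.9-fold lower on EP2KO 3 and 4 than on EP2KO 1 and 2, a log2 difference of -4.31 ± 0.55 (limma adjusted p = 0.00249). Kif11, the motor that pushes spindle poles apart, had 0.375 and 0.419 on EP2KO 1 and 2, against 0.164 and 0.0777 on WT 1 and 2. It had 0.0237 and 0.0277 on EP2KO 3 and 4, against 0.143 and 0.0511 on WT 3 and 4. Kif2c, a motor that shortens microtubules at the centromere, had 0.180 and 0.201 on EP2KO 1 and 2, against 0.0948 and 0.0332 on WT 1 and 2. It had 0.0133 and 0.0130 on EP2KO 3 and 4, against 0.103 and 0.0286 on WT 3 and 4. In these 2 genes, whose promoters are printed above, the genotypes did not overlap in either pair.

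Kif23, a motor of the dividing furrow, had 0.761 and 0.888 on EP2KO 1 and 2, against 0.372 and 0.247 on WT 1 and 2. On EP2KO 3 and 4 it had 0.145 and 0.264, against 0.443 and 0.150 on WT 3 and 4, so that the genotypes overlapped in the second pair. Of the others, Kif20a was 13.01-fold and Prc1, which bundles the midzone, 11.4-fold lower between the EP2KO slides. Tpx2, which activates Aurka, did not pass there (-1.55 ± 0.53, limma adjusted p = 0.0598), the one tested mitosis member that did not.

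**Figure D5:**
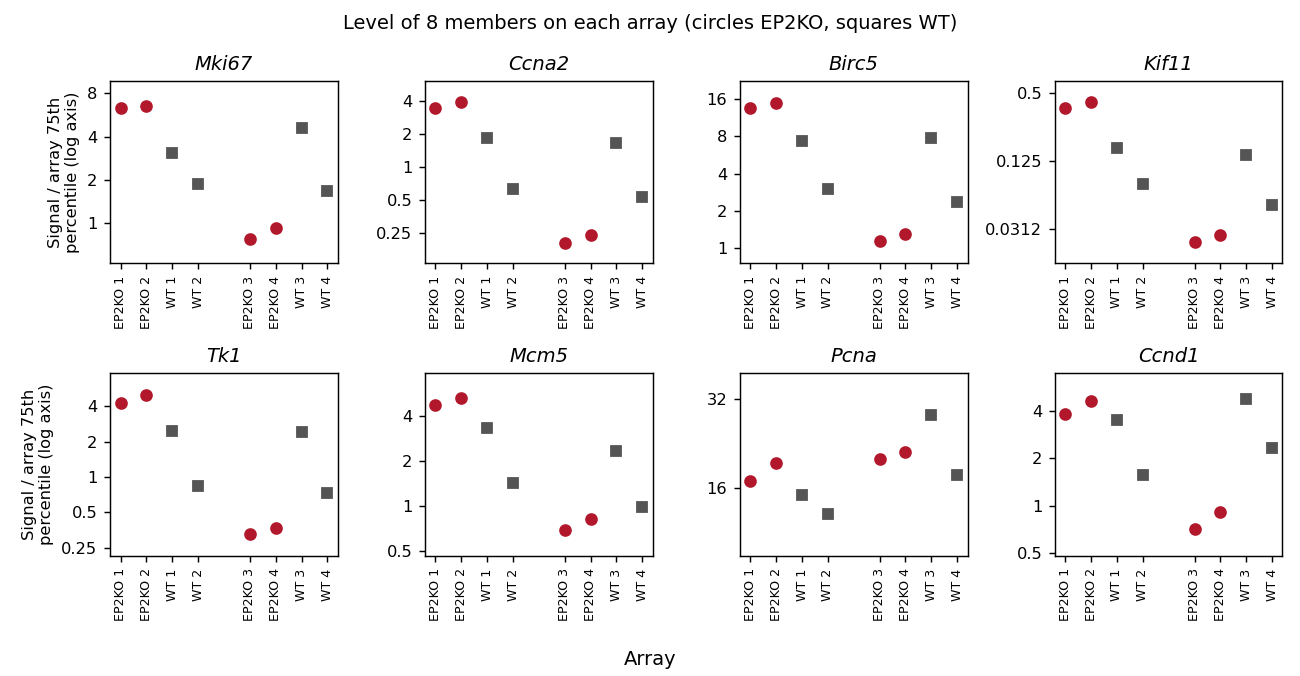
Level of 8 members on each array (signal divided by the array's 75th percentile, log axis; EP2KO circles, WT squares; replicates 1 and 2 left, 3 and 4 right in each panel). Mki67, Ccna2, Birc5, Kif11, Tk1 and Mcm5 are highest on EP2KO 1 and 2 and lowest on EP2KO 3 and 4, Pcna runs between 13.1 and 28.2 with WT 3 highest, and Ccnd1 is highest on WT 3.

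Among replication genes, the Mcm helicase subunits moved together by smaller steps. Mcm5 had 4.77 and 5.27 on EP2KO 1 and 2, against 3.35 and 1.44 on WT 1 and 2. It had 0.690 and 0.824 on EP2KO 3 and 4, against 2.34 and 0.984 on WT 3 and 4. All 6 Mcm members fell between the EP2KO slides, from 2.03-fold for Mcm3 (limma adjusted p = 0.0226) to 6.64-fold for Mcm5 (adjusted p = 0.00887), and their genotype differences ran from 0.61 to 1.19 in the first pair and from -1.01 to -0.19 in the second. Cdc6, which loads the helicase, had 0.168 and 0.223 on EP2KO 1 and 2, against 0.148 and 0.0574 on WT 1 and 2. It had 0.0351 and 0.0478 on EP2KO 3 and 4, against 0.104 and 0.0401 on WT 3 and 4, overlapping in that pair. Cdc45, a partner of the helicase, fell 3.04-fold between the EP2KO slides (limma adjusted p = 0.0325) but stood apart in the first pair, with its highest level of all, 0.181, on WT 2.

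Pcna, the sliding clamp of DNA polymerase, and Gmnn, the inhibitor of relicensing, did not pass between the EP2KO slides. Pcna had 16.9 and 19.4 on EP2KO 1 and 2, against 15.2 and 13.1 on WT 1 and 2. It had 20.1 and 21.1 on EP2KO 3 and 4, between 17.7 on WT 4 and 28.2 on WT 3. The EP2KO slides differed by 0.18 ± 0.23 on the log2 scale (limma adjusted p = 0.563), beside -2.92 for Mki67. Gmnn had 0.757 and 0.928 on EP2KO 1 and 2, against 0.691 and 0.675 on WT 1 and 2, and 0.505 and 0.618 on EP2KO 3 and 4, against 0.733 and 0.409 on WT 3 and 4. Its value between the EP2KO slides was -0.59 ± 0.29 (adjusted p = 0.149).

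Enzymes of nucleotide supply were split as well. Tk1, thymidine kinase, had 4.22 and 4.99 on EP2KO 1 and 2, against 2.48 and 0.839 on WT 1 and 2. It had 0.327 and 0.370 on EP2KO 3 and 4, against 2.39 and 0.729 on WT 3 and 4, and fell 13.2-fold between the EP2KO slides (limma adjusted p = 0.00774). Rrm2, the cell-cycle-bound subunit of ribonucleotide reductase, had 5.50 and 6.15 on EP2KO 1 and 2, against 3.17 and 1.13 on WT 1 and 2. It had 0.426 and 0.488 on EP2KO 3 and 4, against 2.69 and 0.844 on WT 3 and 4. Their differences of differences, -3.59 ± 0.95 and -3.35 ± 0.91, lay past the median of the mitosis members, which was -3.19.

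Rrm1, the large subunit, fell 2.82-fold between the EP2KO slides. Tyms, thymidylate synthase, ran from 0.0730 to 0.0878 on EP2KO arrays, against 0.0733 to 0.0958 on WT arrays, and the groups overlapped. RefSeq lists pseudogene copies of Pcna, Tyms, Ccnb1 and Ccnb2, and whether their probes also read those copies was not tested.

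Regulators of the G1 to S step shared no single course. Ccnd1, the growth factor-induced cyclin D1, had 3.84 and 4.63 on EP2KO 1 and 2, against 3.51 and 1.58 on WT 1 and 2. It had 0.709 and 0.917 on EP2KO 3 and 4, against 4.73 and 2.34 on WT 3 and 4. WT 3 was its highest array, and -2.04 ± 0.47 in the second pair was the lowest adjusted p among members there (limma adjusted p = 0.108), which did not pass. Ccne1, the cyclin that starts S phase, had 1.78 and 1.60 on EP2KO 1 and 2, against 1.49 and 0.962 on WT 1 and 2, and 0.464 and 0.456 on EP2KO 3 and 4, against 1.17 and 0.640 on WT 3 and 4. Ccnd1 fell 5.23-fold and Ccne1 3.66-fold between the EP2KO slides (limma adjusted p = 0.0102 and 0.00695).

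E2f1, the activator of S phase genes, ran from 1.49 to 1.67 on EP2KO arrays, against 1.29 to 1.88 on WT arrays. Chek1, the replication checkpoint kinase, had 0.0115 and 0.0138 on EP2KO 1 and 2, against 0.0148 and 0.0178 on WT 1 and 2, and 0.0196 and 0.0167 on EP2KO 3 and 4, against 0.0197 and 0.0234 on WT 3 and 4. It was the one member whose difference of differences was above 0 (0.11 ± 0.26), and the sign of that value turned under 5 alternatives. Neither gene passed between the EP2KO slides (E2f1 0.07 ± 0.17, limma adjusted p = 0.771, and Chek1 0.52 ± 0.18, adjusted p = 0.0636). The signal of Chek1 was low on all 8 arrays, within the range of Ttk (0.00532 to 0.0556), which the filter left out. Any effect of low signal on its differences was not tested.

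The 3 members left out by the filter were dim. Ccne2 was well above background on 1 array, Cenpf on 3 and Ttk on 5. The signal of Ttk, a checkpoint kinase, was 0.0553 and 0.0556 on EP2KO 1 and 2, against 0.0295 and 0.0104 on WT 1 and 2. It was 0.00532 and 0.00703 on EP2KO 3 and 4, against 0.0338 and 0.00979 on WT 3 and 4, partly within background. The other 44 were well above background on all 8 arrays. Of the 10 members with several such probes, all 10 had the same sign of the difference of differences on each probe, and 9 agreed within 1 log2 unit. The exception was Cdk1, with -3.30 on the probe used and -2.09 on another. A further Cdk1 probe, well above background on 7 arrays, had -0.16.

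Genes of the same processes that are no members moved likewise. Between slides, 23.2% of all features were called higher and 15.6% lower in EP2KO, and 17% higher and 15.1% lower in WT. Of 49 other mitosis genes tested, 43 were well above background on all 8 arrays; of these, 42 fell between the EP2KO slides and 3 between the WT slides. The remaining 6 passed the filter through 1 genotype and are left out of these counts. Of 44 other replication genes, all on 8 arrays, 31 fell and 1 rose between the EP2KO slides (median -1.28), while 3 rose and 4 fell in WT, fewer than the shares of all features. Over all genes tested of both lists, the 6 included, limma called 0 between genotypes over 8 arrays, in either pair, or for the difference of differences. The medians of the latter were -2.60 for mitosis and -1.11 for replication genes. Without adjustment 2 replication genes and 0 mitosis genes were higher over 8 arrays, where 1.98% of all features passed in either direction. For the difference of differences 25 of 44 replication genes were lower without adjustment, against 10% of all features. Pbk, a mitotic kinase, had 1.27 and 1.50 on EP2KO 1 and 2, against 0.563 and 0.172 on WT 1 and 2, and 0.0582 and 0.0748 on EP2KO 3 and 4, against 0.704 and 0.181 on WT 3 and 4. E2f7, a repressor of E2F targets, differed by 1.88 ± 0.65 in the first pair and -1.89 ± 0.65 in the second.

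Of 25 inhibitors, pocket proteins and anti-proliferative genes, 6 rose and 6 fell between the EP2KO slides, with a median of -0.01. That was 24% each, against 23.2% higher and 15.6% lower among all features. For the 25 genes limma called 0 between genotypes in either pair. Without adjustment 4 were higher in the first, against 5.19% of all features. In the second 4 were higher and 2 lower, against 1440 and 2002 of 20736 features. The widest differences of differences were those of Cdkn2a and Cdkn2b, inhibitors of Cdk4 and Cdk6, at -3.34 ± 0.69 and -2.56 ± 0.55 (limma adjusted p = 0.117 and 0.119). Of 21 growth signal genes, 5 rose and 12 fell between the EP2KO slides, against 23.2% and 15.6% of all features. In WT 2 rose and 6 fell, against 17% and 15.1% of all features. Within replicates 3 and 4, 1 of the 21 passed between genotypes, against 0.94% of all features: Il34, a ligand of the Csf1 receptor, was lower in EP2KO (-4.21 ± 0.59, limma adjusted p = 0.0433). Its level was 0.0707 and 0.0252 on EP2KO 3 and 4, against 0.670 and 0.908 on WT 3 and 4.

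Markers of other cells moved beside these genes, and their part in the result was not tested. In bulk samples fewer cells of a type and less RNA per cell cannot be told apart. All 14 fibroblast and mesothelial markers were well above background on all 8 arrays, and their summed level ran from 4.54 to 94.2 on EP2KO arrays, against 21.9 to 139 on WT arrays. Their centred medians were 0.39 and 1.44 on EP2KO 1 and 2, against 1.11 and -1.44 on WT 1 and 2, and -0.95 and -3.04 on EP2KO 3 and 4, against 1.34 and 1.52 on WT 3 and 4. The difference of differences was below 0 in all 14 (median -4.39), with 0 called. Without adjustment 11 of 14 were lower for it, against 10% of all features. Within replicates 3 and 4 (median -3.49) Igfbp6 was the 1 of 14 that passed (limma adjusted p = 0.0341), against 0.94% of all features. Without adjustment 10 of 14 were lower there, against 9.65% of all features. Between slides 2 of 14, Pdgfrb and Igfbp6, fell in EP2KO (median -2.71), against 15.6% of all features. Without adjustment 10 of 14 were lower there, against 4187 of 20736 features. In WT 0 passed (median 1.78), against 17% of all features called higher. At an unadjusted p under 0.05, 2 were higher in WT, against 23.6% of all features.

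Large resident peritoneal macrophage markers, Gata6 among them, were well above background on all 8 arrays (12 of 12). Their summed level ran from 34.5 to 210 on EP2KO arrays, against 31.6 to 159 on WT arrays. Within replicates 1 and 2 the median of EP2KO minus WT was 1.43, with 0 called and 11 of 12 higher without adjustment, against 5.19% of all features; the members moved the same way there. Within replicates 3 and 4 the median was 0.66, unlike the members. There 1 of 12, Cxcl13, was called lower (limma adjusted p = 0.0192), against 0.94% of all features in either direction. Without adjustment 6 of 12 were higher and 2 lower in that pair, against 1440 and 2002 of 20736 features. Their difference of differences was below 0 in 9 of 12. Between slides 11 of 12 fell in EP2KO (median -2.99), against 15.6% of all features, and 8 of 12 in WT (median -1.92), against 15.1%. The cell cycle members had 38 of 44 lower in EP2KO and 0 in WT over the same arrays.

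Of 13 T and NK cell markers, 11 were well above background on all arrays and 2 passed the filter through 1 genotype. The summed levels of all 13, those 2 included, ran from 8.47 to 30.2 on EP2KO arrays, against 7.75 to 41.1 on WT arrays. All 13 were lower in value in EP2KO within replicates 1 and 2 (median -1.11; 0 called, 11 lower without adjustment, against 8.17% of all features). The same 11 all had a difference of differences above 0, whereas 43 of 44 members were below 0. Between slides 8 of these 11 fell in EP2KO and 9 in WT, against 15.6% and 15.1% of all features. All 8 tested mast cell markers were on all arrays, with summed levels from 8.27 to 33.4 on EP2KO arrays, against 2.89 to 19.3 on WT arrays. Within replicates 3 and 4, where 42 of 44 cell cycle members were below 0, limma called 4 mast cell markers higher in EP2KO (Mcpt4, Cma1, Cpa3 and Fcer1a) and 1 lower (Hdc), against 0.94% of all features in either direction. The median of the 8 was 2.47, and the lowest limma adjusted p was 0.0149, for Mcpt4. Between slides 7 of 8 mast cell markers fell in each genotype, against 15.6% of all features in EP2KO and 15.1% in WT. Beside the same shares, 9 of 10 B and plasma cell markers fell in EP2KO (median -3.44) and 8 in WT (median -2.95). Of 7 monocyte markers, 4 fell in EP2KO and 5 in WT. In both of these lists 0 rose.

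The 15 macrophage identity genes had centred medians between -0.11 and 0.02 on EP2KO arrays, against -0.36 to 0.33 on WT arrays. Single genes among them moved both ways. Between the EP2KO slides 3 rose (20%) and 4 fell (26.7%), against 23.2% higher and 15.6% lower among all features. Between the WT slides 1 rose (6.67%) and 6 fell (40%), against 17% higher and 15.1% lower.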

How the data were processed

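Total RNA of macrophages had been amplified, labelled with Cy3 and hybridised to 8 1-colour Agilent arrays, per the labels' protocols. The deposited scanner files and series table hold intensity on a linear scale, background-corrected by the authors' Feature Extraction (10.7.1.1 per the file headers, 9.1 per the submitters' processing notes) and not scaled between arrays. Values of both agreed exactly.

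Each processed signal was put on the log2 scale, less its array's 75th percentile. Control spots (1377 of 44397) were dropped, flagged spots set missing and spots of a probe averaged. Probes were named through RefSeq transcripts (GRCm38.p6). A probe was kept when well above background on all arrays of a genotype, and a gene was read from its brightest kept probe. A level is signal over that percentile.

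All features were fitted with limma 3.58.1 in R 4.3.3 (lmFit, eBayes; Benjamini-Hochberg over 20736 features; two-sided; threshold 0.05): genotype over 8 arrays, and 4 means, genotype by replicate pair, with 4 residual degrees of freedom. The fits were tested on simulated data. The number of arrays limits the precision.

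Equal replicate numbers deviated together across all genes (r = 0.74, 0.12, 0.55 and 0.43 for numbers 1 to 4). All were above 0.1, so the replicate block is given, and each pair also shares a slide. Over the members the median deviations had 1 sign at numbers 1 and 4. They had opposite signs at number 2 (1.40 in EP2KO, -0.41 in WT) and number 3 (-1.42 in EP2KO, 0.53 in WT). Per-array values are given for Mki67, Top2a, Pcna and Ccnd1 and, per role, the 2 members with the largest and the 1 with the smallest difference of differences, and for 2 genes with the largest such value per further list, not all of which are used. E2f1, Tyms, Cdc45, Ttk and genes named with other contrast values were picked after their values were seen. The members and lists were chosen with earlier results of these data known. Alternatives covered background correction (normexp, on the median spot signal in place of the planned mean, a column the files used lack), scaling, filters, probe choice, flags, blocks, the moderation of variance and leaving out single arrays. The comparisons between slides and the filter within a replicate pair were added after the data were seen.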

Additional observations from a re-analysis of the deposited data

Results flagged for a closer look

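Dixon's test for 1 array far from the other 3 of its genotype was applied to 104 groups of 4 arrays, the named members and the medians of each list in either genotype. It marked 5 groups, against 5.2 that chance alone would give. One was a cell cycle gene: Gmnn, the inhibitor of relicensing, had 0.409 on WT 4, against 0.675 to 0.733 on the other WT arrays, a gap of 0.857 of the group's range. The other marks were list medians. Macrophage identity genes were lowest on EP2KO 4 (0.883 of the range), neutrophil markers were highest on EP2KO 1 (0.835), and on WT 2 both the fibroblast and mesothelial markers (0.862) and the endothelial markers (0.976) were lowest. WT 2 was also the lower WT array of its slide for 41 of 44 cell cycle members; whether these are related was not tested.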

How the results depend on the processing

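Of 1632 values of named members under alternatives, 1579 kept their direction and side of the threshold, 22 turned sign, 7 came to pass and 24 no longer passed; the cause was not tested. Members called stayed at 0 over 8 arrays (replicate block and slide block included) and within either pair under all alternatives run. Features called over 8 arrays were 2, 0 with the replicate block, 4 with the slide as a block and 0 to 4 with an array left out. Ptger2 passed with quantile normalization (-1.74, limma adjusted p = 0.0415), probes well above background on all 8 arrays (-1.76, adjusted p = 0.0479) and the slide as a block (-1.76, adjusted p = 0.0328), but not with the replicate block (adjusted p = 0.217). With an array left out, members called for the difference of differences ran from 0 to 10, those lower between the EP2KO slides from 22 to 39 (31 to 39 under the other alternatives), and those called between the WT slides from 0 to 2 (2 without WT 1 or WT 3, 1 with quantile normalization). Leaving out an array moved the median of mitosis members to between 0.96 and 2.21 in the first pair and -2.33 and -0.87 in the second, that of all members to between -1.78 and -0.54 in the second pair, and the median difference of differences to between -3.23 and -2.09 (-3.22 without WT 1).

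Signs turned in the following values. In replicates 3 and 4, Pcna had 0.061 with normexp, 0.18 with median scaling and -0.45 to 0.22 with an array left out. Tyms had 0.11 with median scaling, 0.079 with quantile normalization and -0.37 to 0.0057 with an array left out, and Chek1 had 0.049 and 0.30 with these scalings. Gmnn had -0.17 with normexp and -0.39 to 0.45 with an array left out, Cdc6 -1.35 to 0.030, Cenpa -0.19 to 0.47 and Kif23 -1.18 to 0.39. For the difference of differences Gmnn had 0.037 with median scaling and -0.69 to 0.15 with an array left out, and Chek1 -0.73 with normexp and -0.019 to 0.25. Median scaling shifted the median of all features in replicates 3 and 4 to 0.34, against 0.05, and that of the difference of differences to 0.45, against 0.14. With normexp the fall of Kif2c between the EP2KO slides was 1.98 in place of 3.85 log2 units. Ccne2, Cenpf and Ttk, not well above background on every array, had no test.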

Other observations

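Other D-type cyclins differed from Ccnd1 in their course. Ccnd2 had 0.206 and 0.177 on EP2KO 3 and 4, against 4.02 and 2.62 on EP2KO 1 and 2, and 0.417 and 0.568 on WT 3 and 4, against 3.08 and 2.18 on WT 1 and 2. It fell between the slides in both genotypes (-4.09 ± 0.29 in EP2KO and -2.42 ± 0.29 in WT; limma adjusted p = 0.000607 and 0.00272). Ccnd3 fell in both as well (-1.48 ± 0.15 and -1.56 ± 0.15; limma adjusted p = 0.00147 and 0.00158). Cdkn1c, an inhibitor of cyclin-dependent kinases, rose in both (3.87 ± 0.55 and 2.61 ± 0.55; limma adjusted p = 0.00355 and 0.0163), as did Gadd45b, a stress-induced gene (2.96 ± 0.25 and 1.91 ± 0.25; limma adjusted p = 0.000935 and 0.00387). Slide and replicate pair cannot be told apart in these values, and the genes were picked after their values were seen.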
